A study of Mus musculus with 4 samples.

Results

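The genes described here are Igj (joining chain of polymeric immunoglobulin, now named Jchain), Pigr, Cd79a, Cd79b, Ms4a1, Tnfrsf17, Pou2af1 and Cr2. They were taken by symbol, as 8 of the 20807 genes built from the deposited exon blocks of the mouse genome assembly mm9, with earlier results of these data known, and no threshold on their values was used. All 8 were found. They were read in 4 SOLiD RNA-Seq libraries of whole frozen intestinal tissue from C57BL/6 mice aged 9 to 10 weeks. The animals carried no engineered allele and received no agent according to the labels, and they were kept under specific pathogen-free conditions. The small intestine (jejunum in the study's methods) and the colon (distal colon) each gave 1 library by cDNA fragmentation and 1 by RNA fragmentation. In the cDNA fragmented libraries, full-length cDNA was made from polyadenylated RNA by template switching, amplified by PCR and then broken. In the RNA fragmented libraries the RNA itself was broken and adaptors were ligated with its strand kept. The labels call the RNA of this second kind ribosomal RNA-depleted, whereas the study's methods describe enrichment of polyadenylated RNA for its RNA fragmented libraries. Total reads here were 77504263 and 83302412 in the small intestine and colon cDNA fragmented libraries, the same as the study lists. In the RNA fragmented libraries they were 36419942 and 37466674, far below the study's totals for that protocol. Reads were matched over 35 colors in all 4 libraries, whereas the study describes longer reads for its RNA fragmentation protocol. The files do not settle whether the RNA fragmented libraries here are those that the study describes.

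Immunoglobulin A is the main antibody of the gut. Plasma cells in the lamina propria make it and join its units with the J chain encoded by Igj, and the polymeric immunoglobulin receptor encoded by Pigr carries the product across the epithelium into the lumen. The plasma cells descend from B cells activated in Peyer's patches and isolated lymphoid follicles. Igj therefore marks antibody-secreting cells, Pigr marks the epithelium that exports their product, and the other 6 genes mark B cells, plasma cells or follicles. Immunoglobulin chain genes were not analysed here. In whole tissue, fewer cells of a type and less RNA per cell cannot be told apart.

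The cDNA fragmented libraries held 22299173 (small intestine) and 24596726 (colon) uniquely placed reads inside exon blocks, and the RNA fragmented libraries 2020045 and 3449872. Uniquely placed reads were 29.0% and 29.8% of all reads in the small intestine and colon cDNA fragmented libraries. In the RNA fragmented libraries they were 5.59% and 9.28%. Levels are given as RPKM, in which reads are divided by the length of the exon blocks and by the library's exon reads. Each tissue and protocol had 1 library, so no difference within a protocol could be tested against animals. Intervals (exact, 95%) cover counting error only and take every read as independent. The study describes the tissues as taken from the same individuals, but the labels do not tie libraries to mice. Genes of the labelled tissues, chosen after their values were seen, followed the labels in both protocols: Sis, a brush border disaccharidase of the small intestine, was at 512 and 1085 RPKM in small intestine and at 1.35 and 12.7 RPKM in colon, and Car1, a colonic carbonic anhydrase, was at 0 and 27.0 RPKM in small intestine and at 52770 and 5964 RPKM in colon. Genes of other cell types differed between the libraries too. The 13 pancreatic acinar genes summed to 348 RPKM in the small intestine and 1272 RPKM in the colon cDNA fragmented library, but to 3900 RPKM in the small intestine and 314 RPKM in the colon RNA fragmented library, and 7 of the 13 had no read in the first. The 8 smooth muscle genes summed to 313 and 259 RPKM in the small intestine libraries and to 1292 and 2489 RPKM in those of colon. The part these tissues played in the values below was not tested.

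The 3′ ends of the most abundant members were read from the mm9 genome, since the reads of Igj stop well before the end of its annotated block. The Igj gene occupies chr5:88948835-88956922 on the minus strand, with 4 exon blocks of 2101 bases in all. GENCODE M1 ends the transcript at position 88949537, inside the last block, 702 bases before the block's own end. A polyadenylation hexamer lies before each of these ends, ATTAAA at the inner and AATAAA at the outer. Pigr occupies chr1:132723261-132748824 on the plus strand, with 11 blocks of 3847 bases. The windows below are chr5:88949545-88949574, chr5:88948834-88948863 and chr1:132748791-132748820, written 5′ to 3′ on the gene's strand with the hexamer in capitals. They are shown because the first marks where the Igj reads stopped.
Igj, inner end: tcttatatgtaaATTAAAtataagttatta
Igj, outer end: atagttttttttAATAAAaatgatgatata
Pigr, end: tgtccattaataATTAAAgtctatgattgc

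Few Igj reads lay beyond the inner end in any of the 4 libraries. In small intestine, 788 of 157536 cDNA fragmented reads and 6 of 1484 RNA fragmented reads lay beyond the inner end. In colon, 107 of 17829 and 29 of 2625 did so. These are shares of 0.50% and 0.404% in small intestine and 0.600% and 1.1% in colon, the last with a Wilson interval of 0.770 to 1.58%, although the stretch beyond holds 702 of the 2101 bases. RPKM of Igj therefore divides its reads by bases that were nearly without reads in all 4 libraries.

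**Figure D1:**
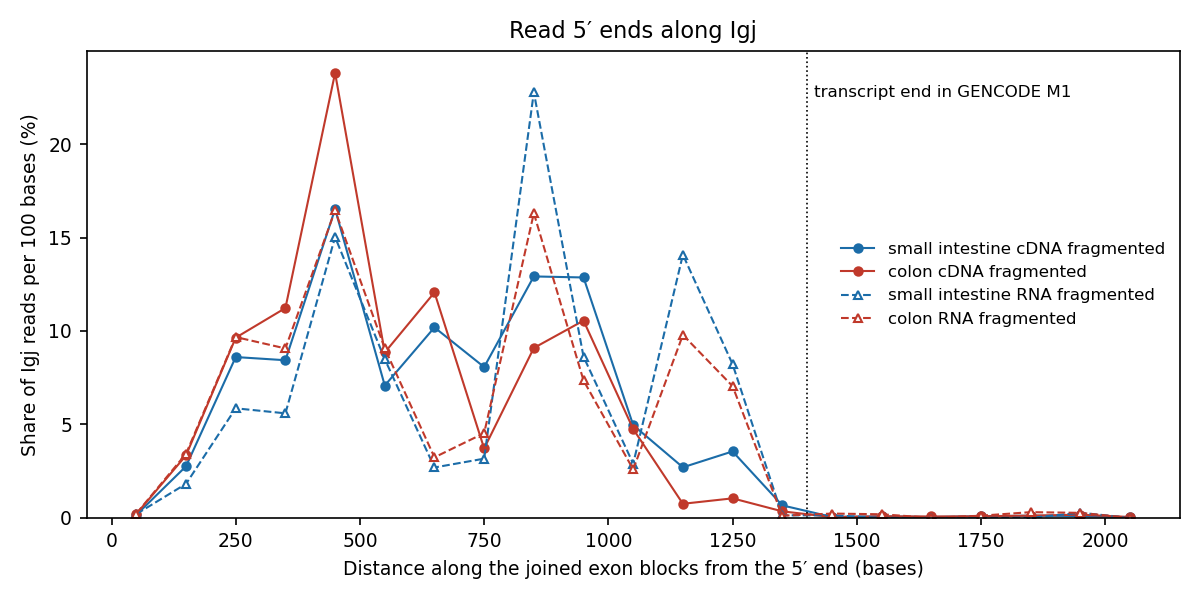
Share of Igj reads (%) whose 5′ end fell in each 100 bases along the joined exon blocks, from the 5′ end, in the 4 libraries; blue is small intestine, red is colon, filled circles are cDNA fragmented and open triangles RNA fragmented. The dotted line is the GENCODE M1 transcript end, beyond which 0.404 to 1.1% of the reads lay.

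Igj was much higher in the small intestine than in the colon in the cDNA fragmented libraries and showed no such difference in the RNA fragmented libraries. It had 157536 reads in the small intestine cDNA fragmented library (3363 RPKM) and 17829 in that of colon (345 RPKM). In the RNA fragmented libraries it had 1484 reads in small intestine (350 RPKM) and 2625 in colon (362 RPKM). The small intestine cDNA fragmented library stood apart, and the other 3 lay between 345 and 362 RPKM. Igj ranked 25 among genes by RPKM there, and 343, 136 and 159 in the colon cDNA, small intestine RNA and colon RNA fragmented libraries. Small intestine over colon was 9.75 (interval 9.60 to 9.90) by cDNA fragmentation and 0.965 (0.905 to 1.03) by RNA fragmentation.

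Pigr was higher in the small intestine in both protocols. It had 96887 reads (1129 RPKM) in small intestine and 51650 (546 RPKM) in colon by cDNA fragmentation. By RNA fragmentation it had 6012 reads (774 RPKM) and 7143 reads (538 RPKM). Both colon libraries lay below both small intestine libraries. Small intestine over colon was 2.07 (2.05 to 2.09) and 1.44 (1.39 to 1.49) by cDNA and RNA fragmentation.

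Cd79a and Cd79b encode the signaling chains that accompany the B cell receptor on the surface. Cd79a had 665 and 357 reads in the small intestine and colon cDNA fragmented libraries (22.5 and 10.9 RPKM), and 27 and 48 reads in the RNA fragmented libraries (10.1 and 10.5 RPKM). The ratio was 2.05 (1.80 to 2.34) by cDNA fragmentation and 0.961 (0.576 to 1.57) by RNA fragmentation, an interval that includes equal levels. The latter became 1.70 with reads of up to 1 mismatch, so its direction depends on that setting. Cd79b had 608 and 353 cDNA fragmented reads (22.8 and 12 RPKM), a ratio of 1.90 (1.66 to 2.17). By RNA fragmentation it had 3 reads in small intestine and 30 in colon (1.24 and 7.26 RPKM), so that colon was higher 5.86-fold (1.82 to 30.0). Cd79a and Cd79b pair in the cell. Cd79a had nearly no reads beyond base 1000 of its 1327 exonic bases in any library, so quotients of RPKM over it depend on those bases. At full length, the RPKM of both was near equal in the cDNA fragmented libraries. Cd79b over Cd79a in RPKM was 1.01 (0.906 to 1.13) in small intestine and 1.1 (0.943 to 1.27) in colon. In the RNA fragmented libraries the same ratio was 0.692 (0.424 to 1.12) in colon and 0.123 (0.0239 to 0.400) in small intestine. The direction of Cd79b by RNA fragmentation rests on 3 reads in small intestine. With reads of up to 1 mismatch, Cd79b had 0 there and 13 in colon.

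Ms4a1 (CD20), a surface protein of B cells that plasma cells lack, followed Cd79a when up to 3 mismatches were allowed. It had 434 and 197 cDNA fragmented reads in small intestine and colon (9.46 and 3.89 RPKM), a ratio of 2.43 (2.05 to 2.89). The RNA fragmented libraries held 19 and 38 reads (4.57 and 5.35 RPKM), a ratio of 0.854 (0.465 to 1.52), or 0.518 with reads of up to 1 mismatch. Ms4a1 over Cd79a lay between 0.356 and 0.511 in the 4 libraries, and the 4 counting intervals overlapped. By RNA fragmentation this depends on the mismatch setting. With reads of up to 1 mismatch, Ms4a1 had 9 reads in small intestine and 31 in colon there, and Cd79a had 21 and 22.

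Tnfrsf17 (BCMA), a receptor that sustains plasma cells, had 194 and 50 cDNA fragmented reads (10.7 and 2.5 RPKM). Its ratio of 4.28 (3.12 to 5.96) was second to Igj among the members. By RNA fragmentation there were 0 reads for it in small intestine and 5 in colon (1.78 RPKM). The 3 reads that a count of 0 allows correspond to 1.83 RPKM there, so no fold is given between the tissues by RNA fragmentation.

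Pou2af1, a coactivator that binds octamer factors on immunoglobulin promoters, had 277 and 131 cDNA fragmented reads (4.84 and 2.08 RPKM), a ratio of 2.33 (1.89 to 2.89). It had 31 and 34 RNA fragmented reads (5.98 and 3.84 RPKM), a ratio of 1.56 (0.926 to 2.61). Cr2 (CD21), a complement receptor of mature B cells and of the dendritic cells of follicles, was the lowest member in 3 of the 4 libraries; in small intestine by RNA fragmentation Cd79b had 1.24 RPKM, and Tnfrsf17, with 0 reads, could not be ranked. It had 110 and 78 cDNA fragmented reads (0.795 and 0.511 RPKM) and 20 and 35 RNA fragmented reads (1.60 and 1.63 RPKM). Small intestine over colon was 1.56 (1.15 to 2.11) and 0.976 (0.534 to 1.74). Pou2af1 and Cr2 were the members whose RPKM was higher by RNA than by cDNA fragmentation in both tissues. For Pou2af1, RNA over cDNA fragmented was 1.24 (0.823 to 1.79) in small intestine, an interval that includes 1, and 1.85 (1.23 to 2.72) in colon. For Cr2 it was 2.01 (1.18 to 3.25) and 3.20 (2.08 to 4.83).

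**Figure D2:**
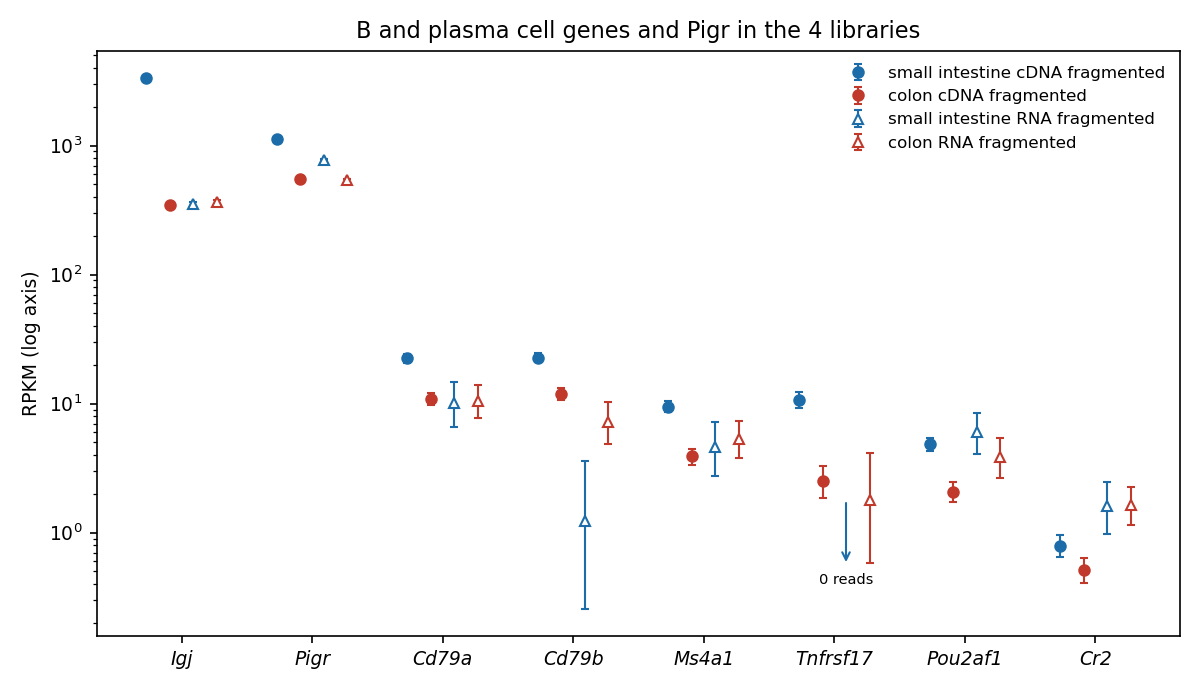
RPKM (log axis) of the 8 members in the 4 libraries, with exact 95% counting intervals; blue is small intestine, red is colon, filled circles are cDNA fragmented and open triangles RNA fragmented. The arrow starts at the RPKM of 3 reads (1.83) for Tnfrsf17 in the small intestine RNA fragmented library, which had 0 reads; Igj is at 3363 RPKM in the small intestine cDNA fragmented library and between 345 and 362 RPKM in the other 3.

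Counted together, 8 of 8 members were higher in small intestine by cDNA fragmentation, where 33.5% of 16435 present genes were. By RNA fragmentation 2 of 8 were, Pigr and Pou2af1, where 35.6% of 15044 present genes were. A gene was present when it had over 0.01 RPKM and at least 2 start points in a library of the pair. The median of the members' log2 ratios, small intestine over colon with 0.1 RPKM added, was 1.12 by cDNA and -0.05 by RNA fragmentation, beside -0.36 and -0.42 over all present genes. Scaling by trimmed mean of M values (TMM) in place of total reads raises every log2 ratio by 0.22 in the cDNA and by 0.35 in the RNA fragmented pair, and the direction of 4 members in the RNA fragmented pair turns with it. The share of all present genes higher in small intestine rises with it to 41.8% by cDNA and 47.4% by RNA fragmentation, beside 8 of 8 and 6 of 8 members. Igj then gave 1.23 (1.15 to 1.31), Cd79a 1.22, Ms4a1 1.09 and Cr2 1.24, the last 3 with intervals that include 1, and Cd79b stayed lower in small intestine at 0.218 (0.0425 to 0.700).

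At least 3-fold higher in small intestine, with 1 RPKM added to the divisor as a guard for low genes, were Igj (9.72) and Tnfrsf17 (3.06) by cDNA fragmentation, where 2.74% of present genes passed. No member was 3-fold higher in colon there, where 3.23% passed. By RNA fragmentation no member passed toward small intestine (3.70% of present genes did) and Cd79b passed toward colon at 3.24, on 3 against 30 reads (6.63% did). The 3-fold rule was applied at total-read scaling.

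**Figure D3:**
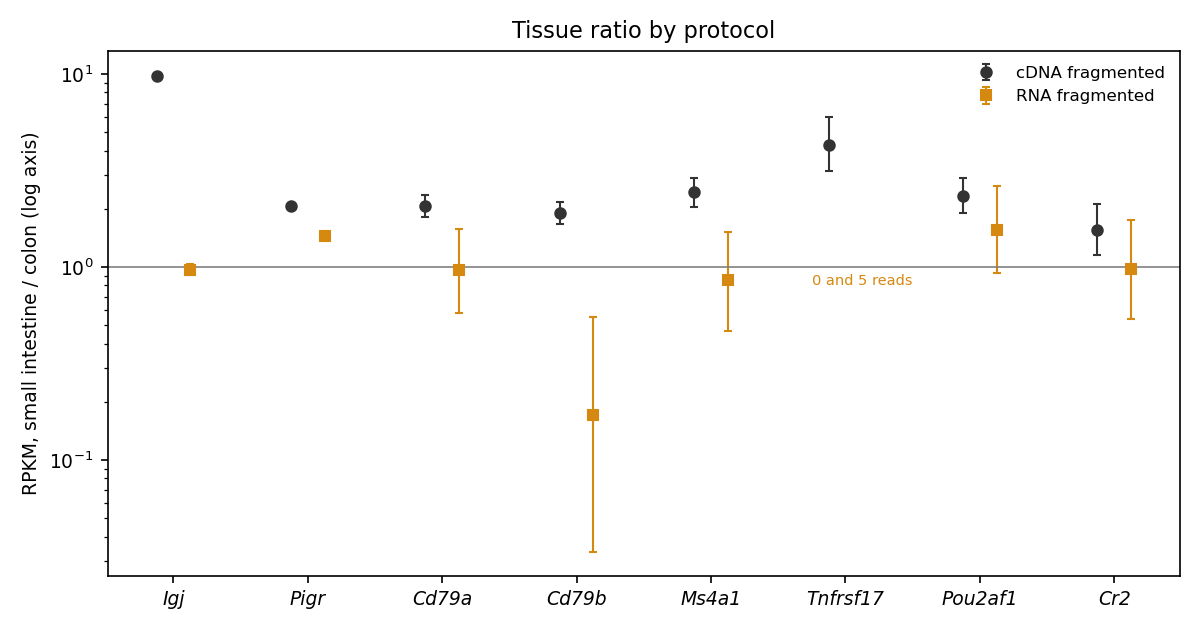
Ratio of RPKM, small intestine over colon (log axis), of each member in the cDNA fragmented (black circles) and RNA fragmented (orange squares) libraries, scaled by total reads, with exact 95% counting intervals. All 8 ratios by cDNA fragmentation lie above 1, from 1.56 to 9.75, whereas 2 of 8 by RNA fragmentation do (6 of 8 after TMM scaling, where 47.4% of all present genes do); no ratio is drawn for Tnfrsf17 by RNA fragmentation, with 0 and 5 reads.

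Tissue and protocol were then fitted together over all 4 libraries (limma with voom weights, Benjamini-Hochberg adjustment over 14134 genes). The spread came mostly from all genes, with 29.5 prior degrees of freedom beside 1 residual degree of freedom a gene. The p-values thus weigh a difference mostly against the protocols' disagreement over all genes. They reflect little of a gene's own disagreement and do not measure how mice vary. Igj was called higher in small intestine, by 1.93 ± 0.46 (SE) on the log2 scale (adjusted p = 0.00301), although its RNA fragmented pair alone showed no difference at total-read scaling. Its adjusted p ranged from 0.000473 to 0.113 over the alternatives that kept both terms. A model with tissue alone called 0 of 14134 genes and so says nothing of single members. Pigr was called higher by 1.07 ± 0.35 (adjusted p = 0.0384, range 0.0384 to 0.120). These 2 of 8 compare with 7.05% of genes called higher in small intestine, and 0 of 8 with 7.24% called higher in colon. The other 6 had log2 estimates from 0.56 (Cd79b) to 1.55 (Tnfrsf17) that did not pass. With limma-trend those of Cd79b and Tnfrsf17 turned to -0.43 and -0.013. Pou2af1 was nearest to passing at 1.29 ± 0.50 (adjusted p = 0.0841). The Pigr call was lost under each of the 5 alternatives that kept both terms, although its log2 estimate stayed between 1.06 and 1.12 in 4 of them and was 0.60 with start points. The Igj call was lost under 2 of them, all genes with a read kept (log2 1.98) and up to 1 mismatch (2.0). With start points in place of reads Pou2af1 was called in place of Pigr (adjusted p = 0.0460). Tissue calls over all genes were 2021 of 14134 in the main fit. They were fewer under each of these alternatives except start points (2098 of 13900).

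Between the protocols, the RNA fragmented libraries gave lower values for 4 of 8 members over both tissues, where 25.2% of genes were called lower and 21.5% higher. These were Igj (log2 -2.24 ± 0.46, adjusted p = 0.000211), Pigr (-0.92 ± 0.35, adjusted p = 0.0340), Cd79b (-2.66 ± 0.68, adjusted p = 0.00194) and Tnfrsf17 (-3.29 ± 0.94, adjusted p = 0.00512). Of 6 alternatives to this fit, the call of Pigr was lost in 4, that of Tnfrsf17 in 3, that of Igj in 2 and that of Cd79b in 1. Over all genes, 6588 of 14134 were called between protocols in this fit, and 1367 with protocol alone in the model. For Igj the difference lay in small intestine: cDNA over RNA fragmented was 9.62 (9.14 to 10.1) there and 0.953 (0.914 to 0.993) in colon. For Pigr it was 1.46 (1.42 to 1.5) in small intestine and 1.01 (0.989 to 1.04) in colon. For Cd79b it was 18.4 (6.25 to 89.3), on 3 RNA fragmented reads, and 1.65 (1.14 to 2.48). For Tnfrsf17 the colon ratio was 1.40 (0.563 to 4.51), so that its estimate rests on the small intestine RNA fragmented library with 0 reads. Whether these tissue differences in the protocol ratio exceed the spread between animals could not be tested with 1 library each. The library kinds differ in cDNA synthesis and amplification and, by the labels, in RNA selection as well. These cannot be told apart here from the step that was fragmented.

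Ratios between members inside a library do not depend on library size. They do depend on the exonic lengths, which for Igj and Cd79a include 3′ bases nearly without reads. Igj over Cd79a in RPKM was 150 (139 to 162) in the small intestine cDNA fragmented library. It was 31.5 (28.4 to 35.1) in colon cDNA, 34.7 (23.8 to 52.9) in small intestine RNA and 34.5 (26.0 to 47.0) in colon RNA fragmented. These 3 intervals overlap, and the first lies far above them. Against other genes the 3 did not coincide. Igj over Ptprc was 184 (176 to 191) and 78.5 (72.5 to 85.3) in the small intestine and colon cDNA, and 32.8 (27.2 to 39.8) and 59.5 (49.5 to 72.1) in the RNA fragmented libraries. Igj over Pou2af1 was 695 (617 to 784) and 166 (140 to 199), and 58.5 (41.0 to 86.4) and 94.3 (67.3 to 136). Igj over Pigr showed the same library apart, at 2.98 (2.95 to 3.0) against 0.632, 0.452 and 0.673. Tnfrsf17 over Cd79a was 0.477 (0.404 to 0.560) in the small intestine and 0.229 (0.167 to 0.308) in the colon cDNA fragmented library. By RNA fragmentation it was 0, with an upper limit of 0.239, in small intestine and 0.170 (0.0529 to 0.426) in colon, and no order is read from these 0 and 5 reads of Tnfrsf17. Pigr over Epcam, an adhesion protein of all intestinal epithelium, was 1.52 and 1.15 in small intestine and colon by cDNA fragmentation and 1.32 and 1.01 by RNA fragmentation. The tissue ratio of this quotient was thus 1.32 by cDNA and 1.31 by RNA fragmentation. Cd79a over Ptprc (CD45, the common leukocyte protein) was lower in small intestine than in colon by cDNA fragmentation, at 1.23 (1.12 to 1.34) against 2.49 (2.18 to 2.84). By RNA fragmentation it was 0.945 (0.598 to 1.44) against 1.72 (1.20 to 2.43), and these intervals overlap. That pair rests on 27 and 48 reads of Cd79a, or 21 and 22 with up to 1 mismatch, so no order is read from it. Ptprc itself was at 18.3 and 10.7 RPKM in the small intestine and at 4.39 and 6.09 RPKM in the colon libraries. These quotients were chosen after values were seen and are descriptions.

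The tissue ratio of Igj was not constant along the transcript. By cDNA fragmentation it lay between 6.77 and 8.70 in each of the first 7 windows of 100 bases. It was 21.2 (19.6 to 22.9) between bases 700 and 800, and 35.1 (29.5 to 42.0) and 33.2 (28.7 to 38.6) in the windows from 1100 to 1300. The window that reaches the inner end, from 1300 to 1400, gave 18.7 (14.5 to 24.6). By RNA fragmentation it was 0.523 (0.439 to 0.621) over the first 3 blocks and 1.09 (1.01 to 1.17) in the last block. The last block was not uniform: its windows between bases 400 and 800 gave 0.675 to 0.904 and those between 800 and 1300 gave 1.08 to 1.39, at total-read scaling. Pigr moved the same way in the RNA fragmented pair, from 1.18 (1.13 to 1.23) over the first 10 blocks to 2.16 (2.03 to 2.29) in the last. By cDNA fragmentation its ratios were 2.18 (2.15 to 2.21) and 1.97 (1.94 to 2.0). Summed over other genes, reads of the RNA fragmented libraries were unbalanced between tissues too. Over 8592 genes longer than 2000 exonic bases with at least 100 reads, 38.2% of small intestine and 30.8% of colon reads fell in the last 1000 bases. The cDNA fragmented libraries had 38.4% and 39.1%. The median share per gene was 43.5% in small intestine and 44.5% in colon by cDNA fragmentation. By RNA fragmentation it was 25.5% in small intestine and 25% in colon, so this imbalance between tissues lay in the summed reads. The part of this imbalance in the members' ratios was not tested.

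**Figure D4:**
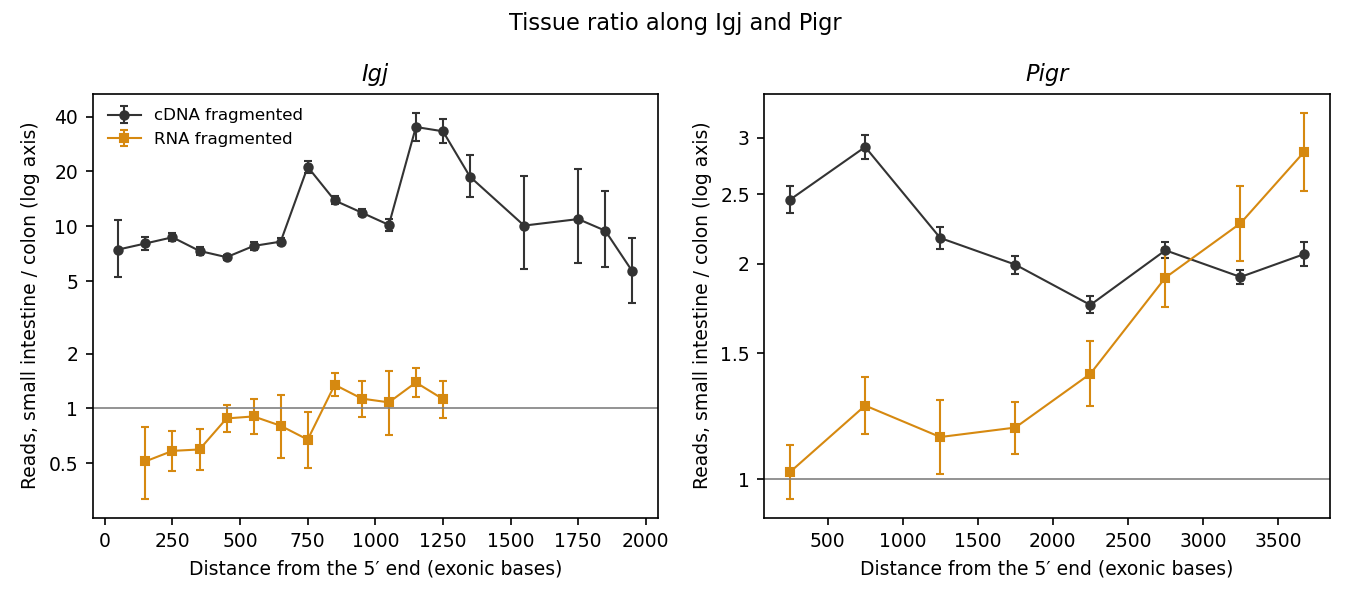
Ratio of reads, each divided by its library total, small intestine over colon (log axes), along Igj in windows of 100 bases and along Pigr in windows of 500 bases, with exact 95% counting intervals; windows with under 100 reads in the pair are not drawn. By cDNA fragmentation (black circles) Igj reaches 35.1 between bases 1100 and 1200, and by RNA fragmentation (orange squares) Pigr goes from 1.02 in the first window to 2.87 in the last.

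The Igj reads of the cDNA fragmented libraries came from many positions. Igj used 2797 of 4202 possible start points (position and strand) in the small intestine cDNA fragmented library, 66.6%, and 1817 (43.2%) in that of colon. It had 56.3 reads per start point in the small intestine and 9.81 in the colon cDNA fragmented library. The RNA fragmented libraries, which keep strand, used 301 start points in small intestine and 454 in colon, at 4.93 and 5.78 reads each. Start points are limited in number, so they cannot rise in step with reads where most are already used. Counting start points in place of reads gave a ratio by cDNA fragmentation of 1.61 for Igj and 1.11 for Pigr. The parts of this limit and of repeated reads in these ratios were not tested. Cd79a had 1.36 and 1.32 reads per start point in the cDNA fragmented libraries, and Cr2 1.03 and 1.11. All reads of Igj and Pigr in the RNA fragmented libraries were sense.

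Pou2af1 acts through the octamer ATGCAAAT. It was looked for on either strand in RefSeq promoter windows (GRCm38.p6, 250 bases before to 50 after the start). Windows were held for 6 members and none contained it, and 570 of 32851 windows (1.74%) did.

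Genes with the profile nearest to a member were taken over the 4 libraries among 12383 genes with at least 100 reads, by Euclidean distance of centred log2 levels. Nearest to Igj were Ccl4 (distance 0.35), Nmur2 (0.60) and Wdpcp (0.69). Ccl4, a chemokine, had 7.61, 0.986, 0.75 and 0.878 RPKM in the small intestine cDNA, colon cDNA, small intestine RNA and colon RNA fragmented libraries. Nmur2 had 0.151 and 0.0885 RPKM in the small intestine and colon RNA fragmented libraries. Levels this low in shallow libraries can rest on very few reads, so the nearness of Ccl4 and Nmur2 to Igj is uncertain there. Nearest to Cd79a were Rhoh (0.080), Slc5a6 (0.10) and Fhl2 (0.10). Rhoh, a GTPase of blood cells, had 2.41, 1.22, 1.1 and 1.11 RPKM. Nearest to Pigr were Ddc (0.12), 2210407C18Rik (0.12) and Ppp1r16b (0.14), and Ddc, which makes amines from aromatic amino acids, had 84.0, 44.5, 56.7 and 40.3 RPKM. The distances are over only 4 libraries and carry no test.

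The other genes of the pathway are given by list, at total-read scaling, beside the shares over all genes: 33.5% by cDNA and 35.6% by RNA fragmentation higher in small intestine, and 7.05% and 7.24% called higher in small intestine and in colon. Of 21 other B cell genes, 14 of 20 with reads were higher in small intestine by cDNA fragmentation (median log2 0.49) and 5 of 21 by RNA fragmentation (median -0.66). Blnk, the adaptor below the receptor, was the only one of 20 tested that passed, higher in colon (log2 -1.47 ± 0.42, adjusted p = 0.0160), at 13.5 and 49.9 RPKM by cDNA and 9.21 and 25 RPKM by RNA fragmentation. Cd83, an activation marker, had 7.19 and 9.65 RPKM by cDNA and 2.08 and 11.1 RPKM by RNA fragmentation.

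Of 15 plasma cell genes, 8 were higher in small intestine by cDNA (median log2 0.15) and 5 by RNA fragmentation (median -0.91). In the limma fit 3 of 15 passed toward small intestine and 1 of 15 toward colon, where 7.05% and 7.24% of all genes did. Those higher in small intestine were 2010001M09Rik (Mzb1, a chaperone of antibody assembly; 1.79 ± 0.56, adjusted p = 0.0273), Ell2 (an elongation factor of antibody secretion; 1.40 ± 0.40, adjusted p = 0.0149) and Slamf7 (1.64 ± 0.54, adjusted p = 0.0388). Their protocols disagreed as for Igj in 2 of 3: 2010001M09Rik had 75.8 and 17.2 RPKM by cDNA but 1 and 13 reads by RNA fragmentation, and Slamf7 had 5.07 and 1.19 against 1.62 and 2.33 RPKM. Ell2 was higher in both, at 2.21-fold and 2.13-fold. Sdc1 (CD138), found on plasma cells and on epithelium, was higher in colon (-1.16 ± 0.37, adjusted p = 0.0300). Xbp1, a secretory regulator that epithelium also uses, had 90.8 and 81.6 RPKM by cDNA and 150 and 281 RPKM by RNA fragmentation. Cd38 had 62.8 and 63.6 against 26.0 and 81.9 RPKM, and Fkbp11 had 17.7 and 47.0 RPKM by cDNA and 0 and 16 reads by RNA fragmentation.

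No gene of organized lymphoid tissue passed, which with so few tested lies near the 7.05% and 7.24% called over all genes. Of 7 germinal center genes, 5 were higher in small intestine by cDNA (median log2 0.58) and 3 by RNA fragmentation (median -0.20, above 0 after TMM scaling), and 0 passed limma with voom and 0 limma-trend, and 1 had an unadjusted p under 0.05. The highest was Fas, a death receptor that epithelium also carries, at 25.4 and 15.1 RPKM by cDNA and 6.05 and 2.09 RPKM by RNA fragmentation. Rgs13, a regulator of G protein signaling in germinal centers, had 10.4 and 5.70 against 4.96 and 7.75 RPKM. Of 8 follicle and Peyer's patch genes tested, 0 passed either fit, and 0 had an unadjusted p under 0.05. Of 10 with reads, 3 were higher in small intestine in each protocol (medians -0.39 by cDNA and -0.83 by RNA fragmentation). Cxcl13, the chemokine that draws B cells into follicles, had 29.9 and 29.2 RPKM by cDNA fragmentation, and 2 and 39 reads by RNA fragmentation. Tnfrsf11a (RANK) had 5.21 and 7.65 against 22.2 and 18.6 RPKM, and Ccl9 10.8 and 12.4 against 10.9 and 22 RPKM.

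Genes of B cell receptor signaling included genes that other leukocytes use. Of 20, 14 were higher in small intestine by cDNA (median log2 0.33) and 9 by RNA fragmentation (median -0.17, above 0 after TMM scaling). Of 20 tested, where 7.05% and 7.24% of all genes passed, 3 passed toward small intestine, Lyn (1.31 ± 0.41, adjusted p = 0.0289), Plcg2 (1.65 ± 0.57, adjusted p = 0.0494) and Dapp1 (1.71 ± 0.44, adjusted p = 0.00630), and Blnk passed toward colon. Cd81 had 42.4 and 37.1 against 42.2 and 58.0 RPKM. The list of IgA induction, homing and transport, had 21 of 27 with reads higher in small intestine by cDNA (median log2 0.45) and 11 of 25 by RNA fragmentation (median -0.11, above 0 after TMM scaling). Of 20 tested, against the same shares over all genes, 4 passed toward small intestine and 1 toward colon. Ccl25, the epithelial chemokine that draws cells to the small intestine, was at 2098 and 18.3 RPKM by cDNA and at 258 and 4.22 RPKM by RNA fragmentation (log2 6.84 ± 0.45, adjusted p = 5.66e-13). Its receptor Ccr9 followed (3.74 ± 0.56, adjusted p = 7.11e-06), as did Nos2 (5.55 ± 0.62, adjusted p = 3.03e-08) and the kinase Yes1 (1.37 ± 0.39, adjusted p = 0.0156). Rab11fip5, a recycling endosome protein, was higher in colon (-2.03 ± 0.69, adjusted p = 0.0441). Rab11a, of the same compartment, had 107 and 94.0 against 82.5 and 127 RPKM. Ccr10, a homing receptor of colonic plasma cells, had 35 and 9 cDNA fragmented reads and 0 and 5 RNA fragmented reads.

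Genes of other cell types that whole tissue holds also differed, and their part in the members' values was not tested. Over all present genes, 33.5% by cDNA and 35.6% by RNA fragmentation were higher in small intestine. Of all genes fitted, 7.05% were called higher in small intestine and 7.24% in colon. T cell genes were higher in small intestine for 15 of 15 by cDNA (median log2 1.40) and 10 of 15 by RNA fragmentation (median 1.23), and 6 of 14 tested were called (among them Cd3e, Cd3d, Cd3g and Cd8a), with 0 called in colon. Cd3g had 42.3 and 4.77 RPKM by cDNA fragmentation and 6 and 0 reads by RNA fragmentation, and Lck had 17.3 and 7.98 against 2.80 and 1.39 RPKM. Ptprc was called too (1.86 ± 0.42, adjusted p = 0.00174). The T cell list summed to 116 and 29.8 RPKM in the small intestine and to 30.4 and 18 RPKM in the colon cDNA and RNA fragmented libraries, and the B cell list to 108 and 37.0 against 111 and 76.3 RPKM. Blnk alone made up 13.5 and 9.21 RPKM of the B cell sums in small intestine and 49.9 and 25 RPKM in colon. Of 10 myeloid genes, 7 by cDNA and 2 by RNA fragmentation were higher in small intestine; Fcer1g passed toward small intestine and Cd14 toward colon, and Lyz2 had 81.6 and 99.4 against 13.1 and 36.2 RPKM. Smooth muscle genes were called higher in colon for 7 of 8, among them Acta2 (-2.02 ± 0.38, adjusted p = 0.000230), Actg2 and Cnn1, and adipocyte genes for 3 of 8 (Adipoq, Cfd and Fabp4), while Car3 had 81.3 and 259 against 13.9 and 16.9 RPKM. Of 8 epithelial genes, 4 by cDNA and 5 by RNA fragmentation were higher in small intestine, and Krt20 and Vil1 passed toward small intestine and Krt19 toward colon. Of 4 erythroid genes 0 passed either fit and 0 had an unadjusted p under 0.05, with Hbb-b2 at 84.9 and 126 against 15.7 and 45.6 RPKM and Alas2 and Hba-a1 under 3 RPKM. Of 12 acinar genes tested Clps passed toward small intestine and Cela1 toward colon, but Cela2a had 0 and 5503 reads by cDNA and 1312 and 8 by RNA fragmentation, and Pnliprp1 32 and 434 against 166 and 0.

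**Figure D5:**
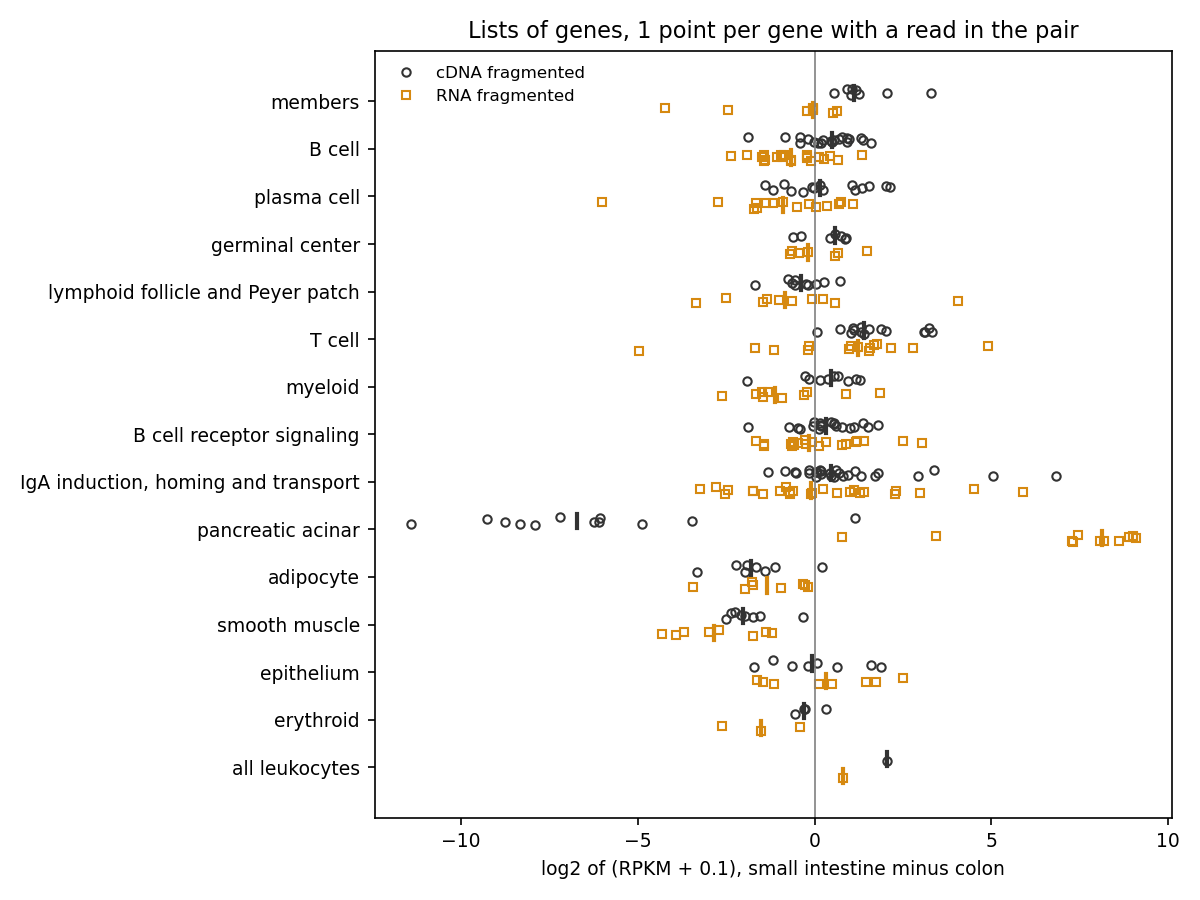
Difference between small intestine and colon in log2(RPKM + 0.1) of each gene with a read in the pair, by list, in the cDNA fragmented (black circles) and RNA fragmented (orange squares) libraries; bars are medians, and vertical scatter within a row only separates points. The members lie right of 0 by cDNA fragmentation (median 1.12) and around 0 by RNA fragmentation (median -0.05, or 0.29 after TMM scaling), the T cell median is right of 0 in both, the smooth muscle median left in both, and the acinar medians are on opposite sides (-6.73 and 8.13).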

How the data were processed

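The deposited files list single reads, not expression values. Per the file headers and deposited reference tables, the authors matched 35 colors of SOLiD reads with up to 3 mismatches to RefSeq exon blocks and junctions of mm9, and deposited the uniquely placed ones. The study's methods describe matching to the whole genome instead, which is not what these files hold. Positions are deposited values of other kinds, with no count column. From them, reads inside exon blocks were counted here per gene (blocks joined through the deposited junctions, named from GENCODE M1) and turned into RPKM by all such reads. Depth was 2020045 to 24596726 reads per library. Within a protocol each tissue had 1 library, so values carry exact 95% counting intervals and no test. PCR duplicates are not independent molecules, so these intervals may be too narrow where many reads share a start point.

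Over all 4 libraries, limma 3.58.1 (voom, TMM library sizes computed here, R 4.3.3) fitted tissue and protocol, for genes with at least 15 reads in all and at least 10 reads at the median depth in at least 2 libraries. A quasi-likelihood count test had been planned, but the files hold no count column and count tools were not used. On simulated data, 180 of 200 genes changed 4-fold between tissues were recovered and 5 unchanged ones called, in 14260 genes. The simulated tissue difference was the same in both protocols, with a fixed spread. It therefore does not show how the fit behaves where the protocols disagree, as they did for several members here. The members and lists were chosen with earlier results of these data known. From each list, the text names the 2 genes with most reads and the 1 with the largest mean tissue difference (at least 20 reads), the called genes of short counts, and for Igj, Cd79a and Pigr the 3 nearest profiles; others were named after their values were seen. Some listed genes are not reported here.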

Additional observations from a re-analysis of the deposited data

Results flagged for a closer look

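The protocols put 5 members on opposite sides: higher in small intestine by cDNA fragmentation and lower by RNA fragmentation at total-read scaling. Small intestine over colon by RNA fragmentation was 0.965 for Igj, 0.961 for Cd79a, 0.171 for Cd79b, 0.854 for Ms4a1 and 0.976 for Cr2, and of these only the interval of Cd79b excludes 1. Tnfrsf17 had 0 against 5 reads, from which no direction is drawn. Whether the tissue ratio differed between protocols was not tested, since each tissue and protocol had 1 library. Under TMM scaling, 4 of these 5 turn to the small intestine side.

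Antisense reads in the strand-keeping RNA fragmented libraries, which no comparison used alone, exceeded the 3 reads that a count of 0 allows for Cd79a in colon (4 of 48 reads) and for Cr2 in small intestine (4 of 20) and colon (4 of 35). Over all genes, 98.4% and 98.3% of reads in the small intestine and colon RNA fragmented libraries were sense.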

How the results depend on the processing

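All 8 members stayed higher in small intestine by cDNA fragmentation under the 7 alternatives tried. By RNA fragmentation 2 were, but 6 with TMM-scaled library sizes and with median-of-ratios size factors, and 4 with start points. TMM scaling puts 47.4% of all present genes on that side and median-of-ratios 47.6%. With up to 1 mismatch 3 were, Cd79a turning from 0.961 to 1.70, and 3 with sense reads (Cd79a 1.05). In the last 1000 bases 3 were: Igj (1.14) and Ms4a1 (1.06) turned up and Pou2af1 down to 0.995. The median log2 ratio by cDNA fragmentation (1.12) became 1.44 with median-of-ratios size factors and 0.84 with start points. Of the 2 members called between tissues, 1 (Igj) remained with median-of-ratios size factors and with limma-trend, an alternative chosen after seeing the data, and with start points Igj remained and Pou2af1 was gained. With limma and voom 0 remained when every gene with at least 1 read was kept (3 at unadjusted p under 0.05), with up to 1 mismatch (4) or with tissue alone in the model (0), which called 0 of 14134 genes and bears on no member. Tissue calls over all genes were 2021 in the main fit, 1666 with median-of-ratios size factors and 1842 with limma-trend, each of 14134. They were 2098 of 13900 with start points, 1425 of 13163 with up to 1 mismatch and 1212 of 17410 with every gene kept. Of the 4 called between protocols, 0 remained with protocol alone in the model (1 at unadjusted p under 0.05). That model called 1367 of 14134 genes. With median-of-ratios size factors Pigr was lost, with every gene kept and with up to 1 mismatch Tnfrsf17, and with limma-trend Cd79a replaced Pigr. With start points 3 were called, without Igj and Pigr and with Cd79a. Protocol calls over all genes were 6588 in the main fit, 5862 with median-of-ratios size factors and 6406 with limma-trend, each of 14134. They were 6336 of 13900 with start points, 5697 of 13163 with up to 1 mismatch and 5772 of 17410 with every gene kept. With start points the protocol estimates (log2) reversed to 0.22 for Igj and 0.48 for Pigr. The small intestine and colon cDNA fragmented libraries used 66.6% and 43.2% of possible start points for Igj and 83.2% and 78.3% for Pigr. The RNA fragmented libraries used 7.16% and 10.8% for Igj and 15.1% and 17.0% for Pigr. The parts of saturation and of repeated reads in the reversal were not tested. Estimates that never passed also changed sign: Cd79b between tissues to -0.073 with tissue alone and -0.43 with limma-trend, Tnfrsf17 to -0.013 with limma-trend, and Pou2af1 between protocols to 0.029, 0.21 and 0.062 with median-of-ratios, start points and up to 1 mismatch. Igj by cDNA fragmentation was 28.3 in the last 1000 exonic bases, 1.61 by start points and 12.2 with median-of-ratios size factors, beside 9.75. Of single ratios, 85 stayed inside their counting interval and 26 did not. The planned DESeq2 alternative was not run. Leaving out 1 library leaves no residual degree of freedom. No paired analysis was possible because the labels carry no replicate or animal numbers. The shallow RNA fragmented libraries limit the low members, with 0 to 48 reads for 6 of 8.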
